A study of Mus musculus with 21 samples.

Results

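The metallothioneins Mt1 and Mt2, their transcriptional activator Mtf1 and the zinc exporter Slc30a1 were followed through haematopoietic maturation in mouse bone marrow. These 4 genes, of 14315 genes with a tested probe, were chosen by the steep fall of Mt2 from the CFUe to the Ter119 fraction. That fall is therefore no finding, and every value of these 4 genes between those fractions is given as a description without a test. Each gene was matched by the RefSeq accession of its array probe and read from its brightest probe. Messenger RNA was measured on 1-colour arrays in 7 fractions sorted from C57BL/6 bone marrow, with 3 arrays per fraction and 21 in all. No treatment was applied, and the age and sex of the mice are not given in the sources used here. The labels do not say whether the arrays of a fraction came from separate animals, so p-values measure only the spread between these arrays.

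KLS is the immature fraction, negative for mature lineage antigens and positive for Kit and Sca1. On the erythroid side, PreMegE is labelled CD150+ CD105-, CFUe is labelled CD150- CD105-, both without Fc gamma receptors, and the Ter119 fraction is defined by CD71 and Ter119. On the myeloid side, PreGM is labelled CD150- CD105- without Fc gamma receptors, GMP is labelled CD150- with Fc gamma receptors, and the Mac1Gr1 fraction by Mac1 and Gr1. The labels thus give CFUe and PreGM the same surface markers and write Sca1+ for every progenitor fraction, so the groups rest on the fraction names. The transcripts separate the 2 fractions. The summed level of 12 erythroid markers was 120 to 125 in CFUe and 3.16 to 4.39 in PreGM, in multiples of the array's 75th percentile. Ly6a, the Sca1 gene, had a log2 level of 2.57 ± 0.17 (SD, n = 3) in KLS, -3.14 ± 0.22 in PreMegE, -0.31 ± 0.10 in PreGM and 2.10 ± 0.03 in GMP. In CFUe only 1 of 3 arrays detected it above background.

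Other cell types' transcripts touch some of the results. The Ter119 arrays carried granulocytic transcripts at the level of the Mac1Gr1 arrays, with a summed level of 4376 to 5532 for 12 markers against 4821 to 5472 in Mac1Gr1 and 5.82 to 45.0 in CFUe. All 12 markers were well above background on every Ter119 array. The KLS arrays carried macrophage markers (11 genes, summed level 30.8 to 85.1), which lay at 1.59 to 2.17 in PreMegE and 1.16 to 1.42 in PreGM. The part of either in the member values was not tested. In sorted populations, fewer cells of a type and less RNA per cell cannot be told apart. Between 56.4% and 77.4% of probes were well above background on an array, and the number of arrays limits the precision.

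Metallothioneins are small cysteine-rich proteins that bind zinc and copper in the cytosol and release them again. When free zinc rises, the zinc finger factor MTF-1 binds short metal response elements in the promoters of Mt1, Mt2 and Slc30a1 and activates them. Slc30a1 (ZnT1) sits in the plasma membrane and carries zinc out of the cell. Metallothionein genes also respond to glucocorticoids and to oxidative stress. Erythroid cells have a particular need for zinc, since carbonic anhydrase and the GATA factors are zinc proteins.

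The upstream promoter bases are shown because metal response elements are the sequences through which MTF-1 acts on Mt1, Mt2 and Slc30a1. RefSeq promoters (GRCm38.p6, plus strand, the 250 bases before the annotated start) were found for all 4. Capitals mark TGCACNC or TGCGCNC, the core letters of the metal response element, on either strand. These are alternative letters at 1 position, so the patterns cannot match the same bases on 1 strand.
Mt1, chr8:94178839-94179088: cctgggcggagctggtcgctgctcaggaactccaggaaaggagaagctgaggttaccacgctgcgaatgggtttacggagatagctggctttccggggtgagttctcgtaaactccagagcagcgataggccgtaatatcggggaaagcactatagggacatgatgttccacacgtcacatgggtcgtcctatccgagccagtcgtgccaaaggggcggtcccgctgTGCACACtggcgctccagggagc
Mt2, chr8:94172368-94172617: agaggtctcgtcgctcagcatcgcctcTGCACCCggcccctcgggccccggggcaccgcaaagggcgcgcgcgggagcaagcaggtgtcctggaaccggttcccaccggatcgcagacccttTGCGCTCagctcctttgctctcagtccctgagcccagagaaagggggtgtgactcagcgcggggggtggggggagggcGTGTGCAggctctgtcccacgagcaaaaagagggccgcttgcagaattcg
Slc30a1, chr1:191906531-191906780: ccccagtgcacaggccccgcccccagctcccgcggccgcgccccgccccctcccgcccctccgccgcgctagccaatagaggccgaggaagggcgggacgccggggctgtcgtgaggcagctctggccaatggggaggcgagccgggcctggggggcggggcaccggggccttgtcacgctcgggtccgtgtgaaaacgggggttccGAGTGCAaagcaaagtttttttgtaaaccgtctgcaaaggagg
Mtf1, chr4:124802299-124802548: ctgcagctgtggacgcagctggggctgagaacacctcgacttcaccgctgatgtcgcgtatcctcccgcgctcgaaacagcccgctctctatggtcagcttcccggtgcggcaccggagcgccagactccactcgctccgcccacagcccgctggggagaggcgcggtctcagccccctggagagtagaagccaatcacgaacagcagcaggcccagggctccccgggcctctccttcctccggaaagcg

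The Mt2 window held 3 matches, at 223 to 217, 128 to 122 and, on the opposite strand, 50 to 44 bases before the start. At least 3 matches were present in 1.26% of 32851 promoters of this length. Mt1 held 1 match, 23 to 17 bases before the start, and Slc30a1 held 1 on the opposite strand, 43 to 37 bases before. At least 1 match was present in 21.4% of promoters, so single matches are common. Mtf1 held 0. With the 50 bases after the start included, Mt1 held 3 matches, Mt2 held 4 and Slc30a1 held 2, counts reached by 1.97%, 0.517% and 7.11% of promoters. TGACNNNGC, the core of the antioxidant response element, matched once in Mt2 (79 to 71 bases before) and once in Slc30a1 (82 to 74 before), against 10.2% of promoters. Mt1 and Mt2 are neighbours on chromosome 8, in the order Mt4, Mt3, Gm39227, Mt2 and Mt1.

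Levels are log2 values relative to the 75th percentile of the same array, so that 0 equals that percentile and 1 is a level 2-fold above it. Changes are differences of these levels. All 4 brightest probes were well above background on all 21 arrays, and none was saturated. A change was called at a limma adjusted p under 0.05 and at least 2-fold. Comparisons were made along each lineage and between the lineages stage by stage. For Mt1 and Mt2 only comparisons free of CFUe and Ter119 were tested, and for Mtf1 and Slc30a1 all but Ter119 against CFUe. Of the 26 member changes so tested, 7 were called, and all 7 concerned Mt1 or Mt2. Over all probes, the share called in these comparisons ran from 2.11% to 29.1% in a direction and is given with each of the 7 calls.

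Mt1 stood higher at each later progenitor stage of both lineages and was low in both mature fractions. In KLS it stood at 1.23, 0.91 and 1.96 on the 3 arrays. In PreMegE it stood at 3.44, 3.73 and 3.42. In CFUe it reached 6.49, 6.70 and 6.59, its highest level. In the Ter119 fraction it was back at 1.07, 1.29 and 1.19, inside the range of KLS. On the myeloid side it stood at 2.69, 2.34 and 2.96 in PreGM and at 5.18, 5.22 and 4.88 in GMP. In Mac1Gr1 it stood at -0.03, 0.17 and 0.55, its lowest level. The fraction means spanned 6.36 on the log2 scale, or 82.4-fold. In the order CFUe, GMP, PreMegE, PreGM, KLS, Ter119 and Mac1Gr1, neighbouring fractions did not overlap, except KLS and Ter119. Mt1 is read from 1 probe printed at 10 spots per array, whose SD within an array was 0.025 to 0.082.

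Mt1 was higher in PreMegE than in KLS by 2.16 ± 0.22 (SE, 4.47-fold, limma adjusted p 1.22e-06), where 3.55% of all probes were called higher. In PreGM it exceeded KLS by 1.29 ± 0.22 (adjusted p 0.000521), against 2.11% of probes called higher. The latter was 0.68 and no longer called under spike-in scaling (adjusted p 0.0878). From PreGM to GMP it rose by 2.43 ± 0.22 (5.39-fold, adjusted p 5.85e-07), where 4.01% of probes were called higher. The GMP and PreGM arrays that shared a slide differed by 2.49. From GMP to Mac1Gr1 it fell by 4.86 (29.1-fold, SE 0.22, adjusted p 3.45e-12), and 27.6% of probes were called lower at that step. PreMegE exceeded PreGM by 0.87 ± 0.22 (adjusted p 0.00783), under the 2-fold minimum, and 5.81% of probes were called higher there. Without PreGM replicate 3 the difference was 1.01 and was called.

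Mt2 stood far higher in CFUe than in the other 6 fractions. In KLS it stood at 0.79, 0.75 and 2.49, with replicate 3 apart from the others. In PreMegE it stood at 2.37, 2.46 and 2.30, and in CFUe at 7.52, 7.81 and 7.62. In Ter119 it stood at 0.40, 0.70 and 0.73. PreGM gave 1.05, 0.81 and 0.40, GMP 1.52, 1.65 and 1.33, and Mac1Gr1 0.32, 0.49 and 0.60. The fraction means spanned 7.18 (145-fold). CFUe lay above every other fraction, and PreMegE above all lower ones but KLS, whose replicate 3 lay above the PreMegE arrays. From GMP downward, through KLS, PreGM, Ter119 and Mac1Gr1, each neighbouring pair of fractions overlapped.

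Mt2 was higher in PreMegE than in KLS by 1.03 ± 0.32 (SE, 2.05-fold, limma adjusted p 0.024), where 3.55% of all probes were called higher. The arrays overlapped, and this call rested on single arrays and settings. Without KLS replicate 3 the change was 1.61 (adjusted p 3.7e-06), and without KLS replicate 1, KLS replicate 2, PreMegE replicate 1 or PreMegE replicate 2 it was 0.76, 0.74, 1.04 or 0.99 and was not called. It was also lost under spike-in scaling (0.57, adjusted p 0.33), with a slide block (0.96, adjusted p 0.121) and in a fit of the compared fractions alone (adjusted p 0.171). From KLS to PreGM the change was -0.58 ± 0.32 (adjusted p 0.204), or -0.01 without KLS replicate 3 and -0.88 without KLS replicate 2, with 6.53% of probes called lower in that comparison. It was -1.20 and called under spike-in scaling (adjusted p 0.0167). From PreGM to GMP the change was 0.74 ± 0.32 (adjusted p 0.103), and under spike-in scaling 1.76 (adjusted p 0.00056). From GMP to Mac1Gr1, where 27.6% of all probes were called lower, it fell by 1.03 (SE 0.32, adjusted p 0.00799), which was -0.40 with a slide block (adjusted p 0.315). That fall came to under 2-fold without GMP replicate 2 (-0.96) or without Mac1Gr1 replicate 1 (-0.96). PreMegE exceeded PreGM by 1.62 ± 0.32 (3.07-fold, adjusted p 0.00103), with differences of 1.40 and 1.89 on the 2 slides that held both. In that comparison 5.81% of all probes were called higher.

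KLS replicate 3 stood 1.72 above the mean of the other 2 arrays in Mt2. Over all tested probes, the corresponding difference had a median of 0.0093, and its 5% and 95% quantiles were -0.88 and 0.54. On that array the 11 macrophage markers lay lower, with a median difference of -1.06, and the 12 erythroid markers higher, with a median of 0.54. The part of these differences in the Mt2 value was not tested.

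**Figure D1:**
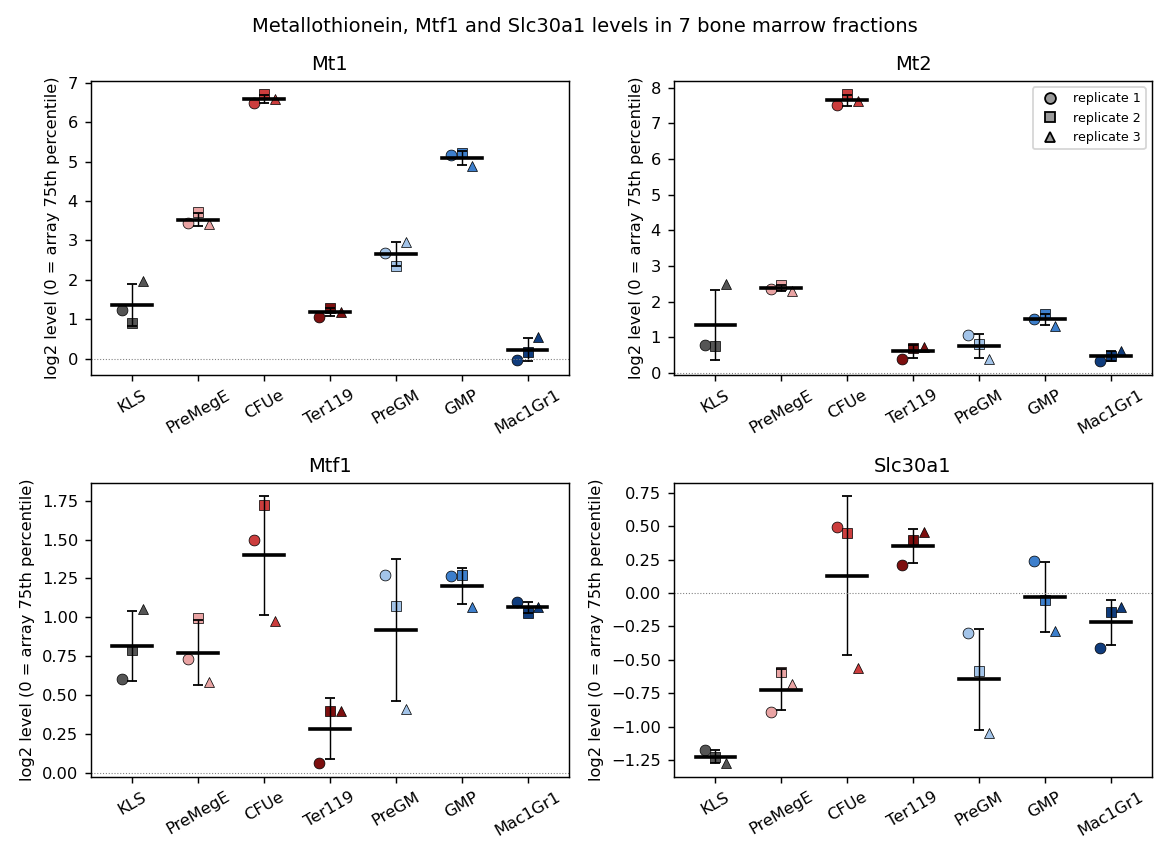
Levels of Mt1, Mt2, Mtf1 and Slc30a1 (log2, relative to the array's 75th percentile, brightest probe) on each of 3 arrays in 7 fractions, with horizontal bars for the mean and whiskers for the SD. Mt1 has a second high level in GMP (4.88 to 5.22) beside CFUe, Mt2 stands highest in CFUe (7.52 to 7.81), and the axes of Mtf1 and Slc30a1 cover a far smaller range.

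The steps into and out of CFUe are described without a test for the metallothioneins. From PreMegE to CFUe, Mt1 was 3.06 higher (8.37-fold) and Mt2 5.28 higher (38.8-fold). On the slide that held an array of each, the differences were 3.26 and 5.45. From CFUe to Ter119, Mt1 changed by -5.41 (42.5-fold lower) and Mt2 by -7.04 (132-fold lower), and on the shared slide by -5.30 and -6.79. At this last step 29.2% of all probes were called higher and 28.0% lower, so most probes were called. Under spike-in scaling the falls were -6.78 and -8.42, and under quantile scaling -4.88 and -6.53. CFUe exceeded GMP by 1.50 in Mt1 (2.83-fold) and by 6.15 in Mt2 (71.1-fold), or by 0.12 and 4.77 under spike-in scaling. Ter119 exceeded Mac1Gr1 by 0.96 in Mt1 without overlap, or by 0.23 under spike-in scaling. In Mt2 the same fractions overlapped, and the difference of 0.14 was -0.58 under spike-in scaling and -0.03 with a slide block. The levels in Ter119 were measured beside the granulocytic transcripts given above. Mac1Gr1 itself held Mt1 and Mt2 at 0.23 ± 0.29 and 0.47 ± 0.14 (SD, n = 3).

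Mt1 and Mt2 shared the highest level in CFUe, whereas Mt1 had a further high level in GMP. Since different probes give different brightness, the difference of the 2 probes within an array was compared only between fractions. Mt1 minus Mt2 was 0.45, 0.16 and -0.52 in KLS and 1.07, 1.27 and 1.12 in PreMegE. It was -1.02, -1.11 and -1.03 in CFUe and 0.67, 0.59 and 0.46 in Ter119. In PreGM it was 1.63, 1.53 and 2.56, and in GMP 3.66, 3.57 and 3.56. In Mac1Gr1 it was -0.35, -0.32 and -0.05. The balance thus lay farthest towards Mt1 in GMP and farthest towards Mt2 in CFUe. This measure needs no scaling between arrays. It changed by 1.69 from PreGM to GMP and by -3.83 from GMP to Mac1Gr1, without overlap in either. In exact permutation tests (two-sided, 3 arrays against 3) all 5 comparisons without CFUe or Ter119 gave p = 0.1, the smallest value this design allows, and 0.1 after Benjamini-Hochberg adjustment over the 5. Cross-hybridisation between these related genes was not tested.

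**Figure D2:**
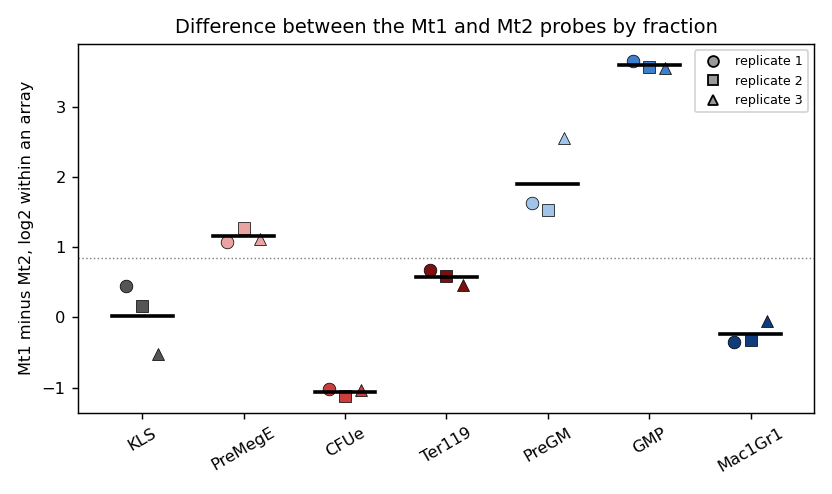
Difference between the Mt1 and Mt2 probes (log2, within an array) on each of 3 arrays in 7 fractions, with bars for the means and a dotted line for the mean over the fractions. GMP lies highest (3.56 to 3.66) and CFUe lowest (-1.11 to -1.02), and every other fraction lies between them.

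Mtf1, the activator, spanned a smaller range of fraction means than the metallothioneins. It stood at 0.60, 0.79 and 1.05 in KLS, at 0.74, 0.997 and 0.58 in PreMegE and at 1.50, 1.72 and 0.98 in CFUe. In Ter119 it stood at 0.06, 0.40 and 0.40, the lowest level of this brightest probe. PreGM gave 1.28, 1.07 and 0.41, GMP 1.26, 1.27 and 1.07, and Mac1Gr1 1.1, 1.03 and 1.07. The fraction means spanned 1.11 (2.16-fold), against the 82.4-fold and 145-fold of the metallothioneins. Both of those spans have their top in CFUe, whose Mt2 values chose the members, so this contrast is a description. Outside CFUe, the Mt1 means ran from 0.23 in Mac1Gr1 to 5.09 in GMP. The Mt2 means ran there only from 0.47 in Mac1Gr1 to 2.37 in PreMegE. Ter119 lay below all 6 other fractions, though PreGM replicate 3 (0.408) lay just above its highest array (0.399). The other neighbouring fractions in the order of means overlapped. This order depended on the probe. On a second, dimmer Mtf1 probe, Ter119 stood at 0.008 ± 0.12 (SD, n = 3), above GMP (-0.18 ± 0.16). The mean of that probe was lowest in KLS (-0.88 ± 0.11) and highest in Mac1Gr1 (0.56 ± 0.09).

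In CFUe against PreMegE Mtf1 was 0.63 ± 0.21 higher (SE, limma adjusted p 0.0212), under the 2-fold minimum, and 9.96% of probes were called higher at that step. The difference was 0.11 under spike-in scaling (adjusted p 0.855) and 0.48 under quantile scaling (adjusted p 0.0642), and its adjusted p was 0.069 in a fit of the compared fractions alone. The second Mtf1 probe rose there by 1.05 (adjusted p 1.11e-06) and was called. From CFUe to Ter119 the brightest probe changed by -1.11 and the second probe by -0.22, both without a test. In Ter119 against Mac1Gr1 Mtf1 was lower, by -0.78 (SE 0.21, adjusted p 0.00403), under 2-fold, where 19.9% of probes were called lower. CFUe against GMP gave 0.20 (adjusted p 0.458) and -1.18 under spike-in scaling (adjusted p 0.00579). Of the probes, 12.1% were called higher and 14.2% lower in CFUe against GMP. PreMegE against KLS (-0.04), PreGM against KLS (0.10), GMP against PreGM (0.28), Mac1Gr1 against GMP (-0.14) and PreMegE against PreGM (-0.15) had adjusted p between 0.378 and 0.902. The second probe rose from GMP to Mac1Gr1 by 0.74 (adjusted p 1.92e-05), so the probes differ in direction on that step. The second probe also rose from PreGM to GMP by 0.66 (adjusted p 0.000479), without overlap. In CFUe against GMP it gave 0.41 (adjusted p 0.00695), and in Ter119 against Mac1Gr1 -0.55 (adjusted p 0.000508). These changes were all under 2-fold. In PreMegE against KLS, PreGM against KLS and PreMegE against PreGM it gave 0.06, 0.05 and 0.02 (adjusted p 0.732, 0.821 and 0.947). Another Mtf1 probe was not well above background on any array and was not tested.

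With the brightest probe, Slc30a1, the exporter, had its lowest mean in KLS and its highest in Ter119, and none of its tested changes was called. It stood at -1.18, -1.23 and -1.27 in KLS, at -0.89, -0.59 and -0.68 in PreMegE and at 0.49, 0.45 and -0.56 in CFUe. CFUe replicate 3 lay below the other 2. In Ter119, where both metallothioneins were low, Slc30a1 stood at 0.21, 0.39 and 0.46. PreGM gave -0.30, -0.58 and -1.05, GMP 0.24, -0.05 and -0.28, and Mac1Gr1 -0.41, -0.14 and -0.11. The means spanned 1.58 (2.98-fold). Only KLS was separate from its neighbour in the order of means. On a second, dimmer Slc30a1 probe Ter119 was also highest (0.06 ± 0.22, SD, n = 3). The lowest mean of that probe was in PreGM (-2.06 ± 0.04), next to KLS (-2.02 ± 0.16).

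In CFUe against PreMegE Slc30a1 was 0.85 ± 0.24 higher (SE, limma adjusted p 0.00666), under the 2-fold minimum. The difference was 0.33 under spike-in scaling (adjusted p 0.577), and its adjusted p was 0.0634 in a fit of the compared fractions alone. It passed that minimum without CFUe replicate 3 (1.20), with a slide block (1.03) and with the second Slc30a1 probe (1.01, adjusted p 7.34e-06). From CFUe to Ter119 the brightest probe was 0.22 higher, but -0.12 without CFUe replicate 3 and -1.15 under spike-in scaling, and the second probe was 0.85 higher. Ter119 exceeded Mac1Gr1 by 0.57 ± 0.24 (adjusted p 0.0439), under 2-fold, where 22.0% of probes were called higher. Spike-in scaling moved the median of all probes there from 0.06 to -0.67, enough to turn this Slc30a1 difference. PreMegE against KLS (0.50), PreGM against KLS (0.58) and GMP against PreGM (0.61) had adjusted p of 0.138, 0.0871 and 0.0701. Under spike-in scaling the first 2 were 0.04 and -0.03, and the last was 1.63 and called (adjusted p 0.00231). Mac1Gr1 against GMP gave -0.19 (adjusted p 0.482), whereas the second probe rose by 0.90 (adjusted p 9.85e-06). CFUe against GMP gave 0.16 (adjusted p 0.594) and -1.22 under spike-in scaling (adjusted p 0.011), and PreMegE against PreGM gave -0.08 (adjusted p 0.867). The second probe gave 0.75 in CFUe against GMP (adjusted p 0.000157) and 0.53 in GMP against PreGM (adjusted p 0.00701), both under 2-fold.

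Whether Mtf1 and Slc30a1 changed differently in the lineages at the second step, CFUe against PreMegE set against GMP against PreGM, was tested in the same limma fit, a contrast chosen after the levels had been seen. On the brightest probes the difference was 0.34 ± 0.30 (SE) for Mtf1 (adjusted p 0.414) and 0.24 ± 0.34 for Slc30a1 (adjusted p 0.629). The second probes were not tested in this contrast. In CFUe against PreMegE and in GMP against PreGM they gave 1.05 and 0.66 for Mtf1, and 1.01 and 0.53 for Slc30a1.

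**Figure D3:**
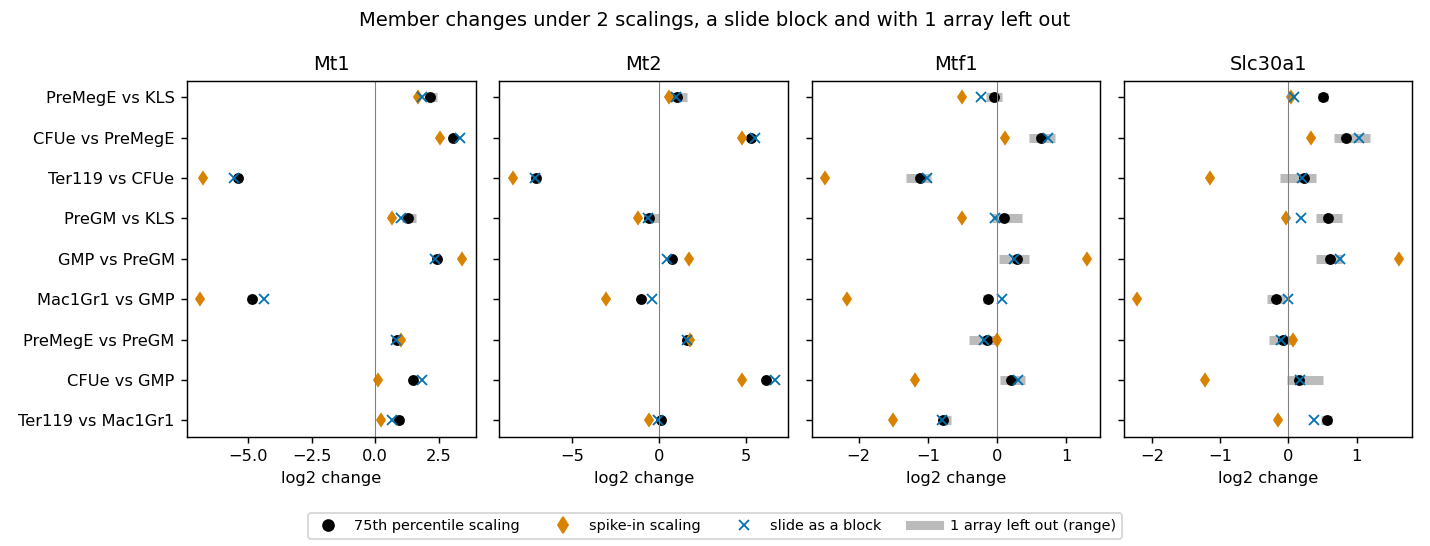
Log2 change of each gene in 9 comparisons, with 75th percentile scaling (black), spike-in scaling (orange), the slide as a block (blue crosses) and the range with 1 array left out (grey). The Mt1 and Mt2 changes from PreMegE to CFUe and from CFUe to Ter119 and the Mt1 change from GMP to Mac1Gr1 lie far from 0 under each of these, whereas Mtf1 and Slc30a1 move across 0 between scalings in CFUe vs GMP.

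The 21 arrays share fractions and include those of CFUe and Ter119, whose Mt2 values chose the members. Correlations over them, and the ranking below, are therefore descriptions that rest in part on the choosing values. Mt1 and Mt2 correlated at r = 0.797. Mtf1 correlated with them at 0.543 and 0.537, and Slc30a1 correlated with the other members at 0.207 to 0.249. The genes whose pattern was most like each member were ranked by Pearson's r over the same arrays among 14125 genes. They were Taf5 (0.976), Xpo5, Eif2b4, Htra2 and Lrrc20 for Mt1, and Gls2 (0.982), Ap1b1, Hpn, Ephx2 and Phf10 for Mt2. For Mtf1 they were Mul1 (0.907), Tatdn2, Cd2bp2, Rdh11 and Setd2, and for Slc30a1 they were Asb6 (0.876), Psme4, Ankrd13c, Rnpc3 and 4833439L19Rik. The other members were left out of this ranking.

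Other genes of metal handling were read from a list of 51 genes, of which 48 had a probe and 44 were tested. It holds zinc exporters, importers, other metallothioneins, copper handling, metal and oxidative stress, and glucocorticoid response genes. On the erythroid side 3 were called higher and 6 lower from KLS to PreMegE (3.55% of all probes called higher and 8.86% lower), 6 and 8 from PreMegE to CFUe (9.96% and 14.7%), and 11 and 17 from CFUe to Ter119 (29.2% and 28.0%). On the myeloid side 0 and 5 were called from KLS to PreGM (2.11% and 6.53%), 3 and 4 from PreGM to GMP (4.01% and 6.36%), and 13 and 11 from GMP to Mac1Gr1 (29.1% and 27.6%). Between the lineages the counts were 4 and 4 in PreMegE against PreGM (5.81% and 6.23%), 6 and 7 in CFUe against GMP (12.1% and 14.2%), and 12 and 13 in Ter119 against Mac1Gr1 (22.0% and 19.9%). The median change of the 44 genes lay between -0.52 and 0.14 over the 9 comparisons, against -0.02 to 0.22 for all probes. Spike-in scaling moved the median of all probes to between -1.86 and 0.99 and turned the balance of these counts. It gave 6 higher and 29 lower in Ter119 against CFUe, 26 and 0 in GMP against PreGM, 3 and 31 in Mac1Gr1 against GMP, 2 and 28 in CFUe against GMP and 6 and 25 in Ter119 against Mac1Gr1. In PreMegE against KLS it gave 1 and 9, and in CFUe against PreMegE 3 and 11.

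The zinc importers move zinc into the cytosol. From PreMegE to CFUe, 1 of 13 importers was called higher and 1 lower (Slc39a4), near the 9.96% and 14.7% of all probes. The one called higher was Slc39a8 (ZIP8), which rose by 3.25 ± 0.15 (SE, limma adjusted p 5.57e-11). Its level was 1.77 ± 0.11 (SD, n = 3) in CFUe, against -1.48 ± 0.11 in PreMegE and 0.05 ± 0.10 in GMP. From CFUe to Ter119 it fell by 4.77 (SE 0.15, adjusted p 4.09e-14), the same steps at which Mt1 and Mt2 were higher and then lower. Other progenitor steps differed. From KLS to PreMegE, where Mt1 and Mt2 were called higher, Slc39a8 changed by -1.11 (adjusted p 2.4e-05) and was called lower. From PreGM to GMP, where Mt1 rose, Slc39a8 was not called (0.35, adjusted p 0.1). No Mac1Gr1 array held it well above background, and it was at least 25.7-fold lower there than in GMP. Slc39a8 exceeded GMP in CFUe by 1.72 and by 0.34 under spike-in scaling (adjusted p 0.354). From CFUe to Ter119, where 28.0% of all probes were called lower, 6 of 13 importers were called lower, Slc39a3, Slc39a6, Slc39a7, Slc39a8, Slc39a9 and Slc39a10, and Slc39a5 was called higher. In CFUe no array held Slc39a5 well above background, and it was at least 7.9-fold higher in Ter119. From GMP to Mac1Gr1, Slc39a4 (ZIP4), a plasma membrane importer, rose by 3.01 ± 0.23 (adjusted p 1.83e-09), and by 0.98 under spike-in scaling. Slc39a6, Slc39a8, Slc39a9, Slc39a10 and Slc39a14 were called lower there, as were 27.6% of all probes.

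Of the zinc exporters other than Slc30a1, 5 were tested. Slc30a4 (ZnT4), which loads zinc into vesicles, changed in the direction opposite to Mt1 at some steps but not at all. Its log2 level was -1.01 ± 0.12 in KLS (SD, n = 3), -3.50 ± 0.09 in PreMegE, -1.97 ± 0.10 in Ter119, and on the myeloid side -1.93 ± 0.21 in PreGM, -3.34 ± 0.21 in GMP and -4.06 ± 0.35 in Mac1Gr1. No CFUe array held it well above background. It fell by 2.49 from KLS to PreMegE (SE 0.28, limma adjusted p 2.84e-06) and fell by 1.41 from PreGM to GMP (SE 0.28, adjusted p 0.00114), the latter -0.40 under spike-in scaling. From GMP to Mac1Gr1, where Mt1 fell, Slc30a4 also changed downward, by -0.72 (adjusted p 0.0282), under 2-fold and with 2 of 3 Mac1Gr1 arrays well above background. CFUe was at least 2.57-fold below PreMegE and at least 7.45-fold below Ter119. Slc30a6 rose from PreMegE to CFUe by 1.09 (adjusted p 8.01e-07), and by 0.57 under spike-in scaling, and Slc30a5 and Slc30a6, exporters of the secretory pathway, changed by -1.22 and -1.34 from CFUe to Ter119. Slc30a5 also fell by 2.58 from GMP to Mac1Gr1 (adjusted p 3.28e-13).

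Mt3 and Mt4, the other metallothioneins, did not have the CFUe peak of their neighbours. Mt3, known from brain, stood at 0.35 ± 0.23 (SD, n = 3) in CFUe and 1.45 ± 0.21 in Ter119. It rose by 1.09 from CFUe to Ter119 (limma adjusted p 2.14e-05) and by 1.69 from GMP to Mac1Gr1 (adjusted p 1.1e-07), both turned under spike-in scaling (-0.28 and -0.34). Mt4, known from squamous epithelia, stood at -2.85 ± 0.32 in CFUe and -1.38 ± 0.09 in Ter119. It rose by 1.47 at that step (adjusted p 5.28e-06), and by 0.09 under spike-in scaling.

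**Figure D4:**
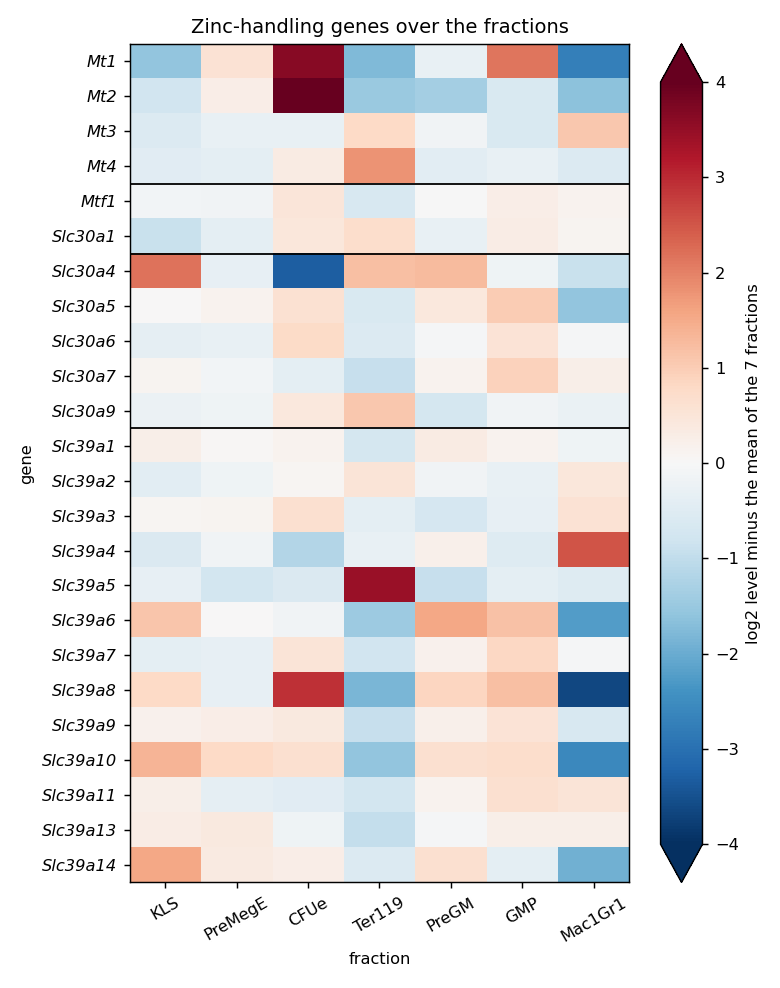
Mean log2 level of each metallothionein, Mtf1 and tested zinc transporter in 7 fractions, minus the gene's mean over the fractions, with colour from -4 to 4 (values beyond are drawn at the end colours). Mt1, Mt2 and Slc39a8 are highest in CFUe, where Slc30a4 is lowest and was not well above background.

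Among genes of metal and oxidative stress, Gclm, a subunit of the enzyme that makes glutathione precursors, was higher at the same erythroid progenitor steps as Mt1 but not lower in Ter119. It rose by 1.37 ± 0.14 (SE, limma adjusted p 1.3e-06) from KLS to PreMegE and by 1.23 ± 0.14 (adjusted p 1.83e-06) from PreMegE to CFUe, or by 0.90 and 0.71 under spike-in scaling, and was not called in GMP against PreGM. From CFUe to Ter119, where Mt1 was lower, Gclm changed by 0.21 (adjusted p 0.184). Spike-in scaling moved the median of all probes at that step from 0.05 to -1.33, enough to turn this Gclm change downward. Gclc, the catalytic partner of Gclm, rose by 1.55 from PreMegE to CFUe (adjusted p 3.01e-07). Nqo1 rose by 2.11 from KLS to PreMegE (adjusted p 3.49e-08) and by 0.88, under 2-fold, from PreMegE to CFUe (adjusted p 0.000219). It fell by 1.19 from CFUe to Ter119 (adjusted p 3.65e-06). From PreGM to GMP, where Mt1 rose, Nqo1 was at least 3.24-fold lower. Of 7 tested stress genes, 2 were called higher and 0 lower from PreMegE to CFUe (9.96% and 14.7% of all probes), and 2 and 2 from CFUe to Ter119 (29.2% and 28.0%). Hmox1, the haem-degrading enzyme and a metal-inducible gene, did not follow the metallothioneins. It fell by 4.66 from KLS to PreMegE (SE 0.66, adjusted p 3.56e-05) and fell by 4.53 from KLS to PreGM (adjusted p 0.000104). Hmox1 is abundant in macrophages, and the KLS arrays carried the macrophage markers given above; their part was not tested.

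The copper genes moved on the same steps in part. From PreMegE to CFUe, Cox17, a copper chaperone of mitochondria, rose by 1.56 (limma adjusted p 1.35e-06), while Slc31a2, a low-affinity copper transporter, was not well above background in CFUe and was at least 1.27-fold lower. Of 8 tested glucocorticoid response genes, 0 were called higher and 5 lower from PreMegE to CFUe, where the metallothioneins were higher and 9.96% of all probes were called higher and 14.7% lower. Tsc22d3 (GILZ), a direct glucocorticoid target, fell by 3.55 (SE 0.20, adjusted p 5.96e-10), the largest fall among them. The median of the 8 at that step was -1.50, against 0.12 for all probes. From GMP to Mac1Gr1, where Mt1 fell, 5 of the 8 were called higher and 1 lower (29.1% and 27.6% of all probes), with Sgk1 higher by 2.21 (adjusted p 4.62e-07) but 0.18 under spike-in scaling. Where a metallothionein was called higher, the list went either way. PreMegE against KLS gave 1 higher (Ddit4) and 0 lower (3.55% and 8.86% of all probes). PreMegE against PreGM gave 2 and 0 (5.81% and 6.23%), and GMP against PreGM 1 and 0 (4.01% and 6.36%). In PreGM against KLS 0 and 4 were called (2.11% and 6.53%). A glucocorticoid part in the metallothionein levels was not tested.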

How the data were processed

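From Cy3-labelled total RNA the authors made 1-colour scanner files, whose deposited spot intensity is linear and corrected for background by the scanner software (Agilent Feature Extraction 10.7.1.1, per the file headers). Their series table, deposited as normalized log2 values, was an alternative. The main values were log2 intensity minus the 75th percentile of the array over 43379 spots that were not controls. Outlier spots (80 to 283 per array) were left out and spots of a probe averaged. This scaling hides changes in total RNA per cell. Of 41174 probes, 29532 were well above background on all 3 arrays of a fraction and were tested two-sided with limma 3.58.1 (R 4.3.3), using lmFit with a mean per fraction, eBayes and Benjamini-Hochberg adjustment within a comparison. The median residual SD was 0.262 with 14 degrees of freedom. The fit was tested on simulated data.

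Probes were named through their RefSeq accession and a table of GRCm38.p6 genes, which gave 26690 probes a symbol; the array headers name mm9. Where no array of a fraction detected a list gene, the fold is given as at least a value: the mean of the brighter fraction against, per array, the higher of the probe's own signal and the lowest signal well above background. The members and gene lists were chosen with earlier results of these data known. Named genes are the members, detected zinc, metallothionein and stress genes, the copper and glucocorticoid genes with the largest called changes, and the 5 genes most correlated with each member. The genes Slc30a2, Sco2 and Zbtb16 had no matched probe, and Slc30a3, Slc30a8, Slc30a10 and Slc39a12 were not tested for low signal. Alternatives were quantile and spike-in scaling (7 of 10 spike-in sequences), normexp background correction (offset 50), the series table, no filter on dim probes, the slide or the replicate number as a block, no minimum fold, the compared fractions alone, other probes, 1 probe per gene, and leaving out each array. All arrays were scanned on 1 day, on 9 slides. Promoter motifs were counted and figures drawn with Python 3.11.15, pandas 2.3.3, scipy 1.17.1 and matplotlib 3.10.9.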

Additional observations from a re-analysis of the deposited data

How the results depend on the processing

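Of the 9 comparisons, CFUe vs PreMegE, Ter119 vs CFUe, GMP vs PreGM and PreMegE vs PreGM had slides holding both fractions. Replicate numbers did not pair the arrays: 21 of 63 same-numbered pairs correlated above 0.1, with a median r of 0.0025, and 7 of 21 arrays correlated best with their own number. The replicate block changed no member call, and left Mt2 in PreMegE vs KLS at 1.03 (adjusted p 0.0318). Brightness relative to the 75th percentile limits statements on absolute amounts, and dim probes such as Slc30a4 in CFUe have only bounds.

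Under spike-in scaling Mt2 was 0.57 in PreMegE vs KLS, -1.20 in PreGM vs KLS and 1.76 in GMP vs PreGM, and Mt1 was 0.68 in PreGM vs KLS and 1.02 in PreMegE vs PreGM. Mtf1 was 1.30 in GMP vs PreGM, -1.50 in Ter119 vs Mac1Gr1 and -2.17 in Mac1Gr1 vs GMP; Slc30a1 was 1.63 in GMP vs PreGM and -2.22 in Mac1Gr1 vs GMP. In CFUe vs GMP, Mtf1 (-1.18) and Slc30a1 (-1.22) turned direction. In Ter119 vs CFUe it gave -6.78 for Mt1, -8.42 for Mt2, -2.49 for Mtf1 and -1.15 for Slc30a1, which turned. Mt2 in Ter119 vs Mac1Gr1 turned under it (-0.58) and with the slide block (-0.0297). The spike-in shift of all probes in that comparison was also enough to turn Slc30a1 (0.57). Quantile scaling and the series table gave -4.88 and -5.01 for Mt1 and -6.53 and -6.63 for Mt2 in Ter119 vs CFUe, and -0.93 and -0.96 for Mt2 in Mac1Gr1 vs GMP, under 2-fold. The slide block gave 0.96 for Mt2 in PreMegE vs KLS, -0.40 for Mt2 in Mac1Gr1 vs GMP and 1.03 for Slc30a1 in CFUe vs PreMegE. The compared fractions alone left Mt2 in PreMegE vs KLS at 1.03 (adjusted p 0.171). The other probes gave 1.05 for Mtf1 and 1.01 for Slc30a1 in CFUe vs PreMegE, and -0.22 and 0.85 in Ter119 vs CFUe. Without the minimum fold, Mtf1 (0.63) and Slc30a1 (0.85) in CFUe vs PreMegE, Mt1 in PreMegE vs PreGM (0.87), and Mtf1 (-0.78) and Slc30a1 (0.57) in Ter119 vs Mac1Gr1 passed, by construction. The cause was not tested for the other changes.

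Leaving out each array gave 0.74 to 1.61 for Mt2 in PreMegE vs KLS, -0.88 to -0.01 for Mt2 in PreGM vs KLS, -1.12 to -0.96 for Mt2 in Mac1Gr1 vs GMP, 0.71 to 1.01 for Mt1 in PreMegE vs PreGM, 0.67 to 1.20 for Slc30a1 in CFUe vs PreMegE and -0.12 to 0.41 for Slc30a1 in Ter119 vs CFUe. The number of called metal list genes was 14, 29, 24, 16, 18 and 26 without the minimum fold (PreMegE vs KLS, CFUe vs PreMegE, PreGM vs KLS, GMP vs PreGM, PreMegE vs PreGM and CFUe vs GMP). It was 12, 26 and 30 under spike-in scaling (PreGM vs KLS, GMP vs PreGM and CFUe vs GMP), 3 in PreGM vs KLS with the compared fractions alone and 3 in GMP vs PreGM under normexp. Of the other alternatives for tested member changes, 251 stayed called or not called as before, as did 148 with an array left out. Changes that were not called could turn sign among these. Mtf1 in PreMegE vs KLS was -0.04, but 0.07 without KLS replicate 3 and 0.06 with the second probe.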
